A study of Mus musculus with 4 samples.

Results

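Transcripts of the cell division machinery were followed in mouse muscle cells with and without Rspo1, the gene of a secreted R-spondin that strengthens Wnt signaling. The set holds 42 genes, chosen by symbol for their roles as cyclins and cyclin-dependent kinases, in replication licensing and in mitosis, out of 24012 genes with a value. By role, 10 belong to entry into the cycle (G1), 13 to DNA replication (S) and 19 to mitosis (G2 and M). Primary myoblasts from limb muscles of mice of a C57bl6N/sv129 background, wild-type or Rspo1-null, had been expanded for 5 passages in Ham F10 medium with 20% FBS and 2 ng/ml bFGF. They were then switched to DMEM with 2% horse serum and harvested after 24 h, so that every sample is a culture of differentiating myocytes. RNA of 2 independent cultures for each genotype was hybridized, each to a GeneChip Mouse Gene 2.1 ST array, which gives 4 arrays in all. Elsewhere in the study heterozygous mice also count as controls, but the labels of these arrays read wild-type. The sources used here do not state whether the cultures of a genotype came from different animals, a point to which Xist and Y-linked transcripts return below. The p-values measure only the spread between these cultures. All values below are log2 intensities, on which a difference of 1 is a 2-fold change.

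Myoblasts divide while growth factors are present and leave the cell cycle for good when they differentiate. In G1, D-type cyclins with Cdk4 or Cdk6, and then cyclin E with Cdk2, inactivate the retinoblastoma proteins and free E2F factors, which switch on the genes of replication. Licensing factors load the Mcm helicase on DNA before S phase, and cyclin A and cyclin B with Cdk1 later drive mitosis. In cells that have left the cycle, E2F factors and the DREAM complex, which binds the CHR element of mitotic promoters, keep these genes silent.

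The promoters of the set were searched for such control elements, and those of 5 members to which the results return are printed. RefSeq windows of the assembly GRCm38.p6 reach from 250 bases before to 50 bases after a listed start. They were matched by symbol for 33 of the 42 genes, with the first listed window taken for each gene. For E2f1, Cdk6, Cdc6 and Aurka this window lies wholly inside the bounds of the gene, so it may miss the promoter at the outermost start. The windows were searched on both strands, counting overlapping matches, for the CHR (TTTGAA or TTCGAA), the CCAAT box (CCAAT) and E2F motifs (TTCCCGC or TTGGCGC or else TTCGCGC or TTGCCGC). Ccna2, Ccnd1, Ccnd2, Ccne2, Mcm4, Aurkb, Foxm1, Kif20a and Gmnn were not matched. A CHR was present in 12 of 15 windows of G2 and M genes (80%), in 2 of 11 of S genes (18.2%) and in 0 of 7 of G1 genes, against 19.4% of 27025 windows of all genes. A CCAAT box was present in 14 of the 15 G2 and M windows (93.3%), 8 of 11 S windows (72.7%) and 2 of 7 G1 windows (28.6%), against 37.9% of all genes. An E2F motif was present in 8 of 11 S windows (72.7%), 3 of 15 G2 and M windows (20%) and 2 of 7 G1 windows (28.6%), against 9.69% of all genes. Both a CHR and a CCAAT box were found in 12 of 15 G2 and M windows, against 7.7% of all genes. A match is only a string of letters and shows no binding. Below are the first 280 bases of 5 windows, 5′ to 3′ on the strand of the gene, with every match in capitals. Ccnb2 (chr9:70421525-70421804, minus strand), Cdk1 (chr10:69352883-69353162, minus strand) and Top2a (chr11:99024160-99024439, minus strand) are mitotic genes, with 2, 2 and 4 CHR matches. Mcm6 (chr1:128359676-128359955, minus strand) and Rrm1 (chr7:102441445-102441724, plus strand) are S genes with E2F motifs and no CHR, chosen because their 4 values lay in unlike orders.
Ccnb2: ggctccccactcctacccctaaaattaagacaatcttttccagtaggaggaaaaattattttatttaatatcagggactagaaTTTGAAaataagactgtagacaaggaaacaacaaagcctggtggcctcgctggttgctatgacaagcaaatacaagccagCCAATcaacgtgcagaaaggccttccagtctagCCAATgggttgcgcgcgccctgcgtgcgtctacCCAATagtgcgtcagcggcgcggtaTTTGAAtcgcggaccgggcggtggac
Cdk1: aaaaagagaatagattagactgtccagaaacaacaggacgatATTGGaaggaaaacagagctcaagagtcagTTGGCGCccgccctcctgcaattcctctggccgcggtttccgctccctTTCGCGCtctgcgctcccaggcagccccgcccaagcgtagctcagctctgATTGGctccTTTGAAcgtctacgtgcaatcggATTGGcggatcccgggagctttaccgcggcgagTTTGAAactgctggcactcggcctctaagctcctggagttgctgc
Top2a: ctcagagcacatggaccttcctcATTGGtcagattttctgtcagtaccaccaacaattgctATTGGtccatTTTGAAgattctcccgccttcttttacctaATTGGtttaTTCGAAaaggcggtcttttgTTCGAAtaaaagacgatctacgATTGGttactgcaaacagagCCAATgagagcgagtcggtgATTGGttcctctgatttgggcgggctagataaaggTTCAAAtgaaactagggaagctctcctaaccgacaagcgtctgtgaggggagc
Mcm6: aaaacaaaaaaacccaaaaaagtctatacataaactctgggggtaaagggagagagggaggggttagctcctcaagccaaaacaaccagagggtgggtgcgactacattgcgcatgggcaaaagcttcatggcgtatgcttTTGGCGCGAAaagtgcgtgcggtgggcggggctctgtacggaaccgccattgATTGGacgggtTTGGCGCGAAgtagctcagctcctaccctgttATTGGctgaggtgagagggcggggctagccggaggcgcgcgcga
Rrm1: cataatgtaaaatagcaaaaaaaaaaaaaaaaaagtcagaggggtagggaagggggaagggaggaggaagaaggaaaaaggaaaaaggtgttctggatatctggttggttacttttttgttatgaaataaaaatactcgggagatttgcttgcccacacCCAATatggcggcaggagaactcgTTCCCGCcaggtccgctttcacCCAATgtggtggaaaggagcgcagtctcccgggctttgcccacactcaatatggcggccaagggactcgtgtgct

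The identity of the arrays was checked before the members were compared. Rspo1 had values of 5.71 in wild-type 1, 5.84 in wild-type 2, 5.29 in Rspo1-null 1 and 5.33 in Rspo1-null 2. Rspo1-null minus wild-type gave -0.46 (SE 0.15, unadjusted p = 0.0286 and adjusted p = 0.999 from limma), and the signal stayed above the background level of 4.70 in the Rspo1-null arrays. No source used here places its probes inside or outside the deleted stretch, so Rspo1 is an incomplete check of the labels. Xist, the RNA that coats the inactive X chromosome in females, had values of 10.39 in wild-type 2 and 10.38 in Rspo1-null 1, against 4.35 in wild-type 1 and 4.07 in Rspo1-null 2. The Y-linked gene Eif2s3y showed the reverse, with 2.60 and 3.51 against 8.19 and 8.51. Each genotype therefore holds 1 array with Xist and 1 with Y-linked transcripts, which the labels do not mention. By these values the 2 cultures of a genotype did not come from the same single animal, while the number of animals behind each culture is not stated. The former, wild-type 2 and Rspo1-null 1, are called the Xist pair below, and the latter, wild-type 1 and Rspo1-null 2, the Y pair. No array was moved to another group. These pairs, which were read from these same arrays, are used to describe values and as a block in an alternative fit.

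All 42 members were detected. The background level is the value that 95% of 1365 genes for olfactory or vomeronasal receptors, which serve mainly in sensory epithelia, do not exceed. Of all genes, 49% had means below it in both genotypes, against 0 of the 42 members. In 37 members all 4 arrays were above it. E2f2, Bub1b and Cenpe fell below it in 1 array, and Cdc6 and Kif11 in 2 arrays. Transcripts of proliferating cells were therefore measurable at 24 h of differentiation in every culture, and fewer cycling cells cannot be told apart from less RNA per cycling cell in such bulk samples.

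**Figure D1:**
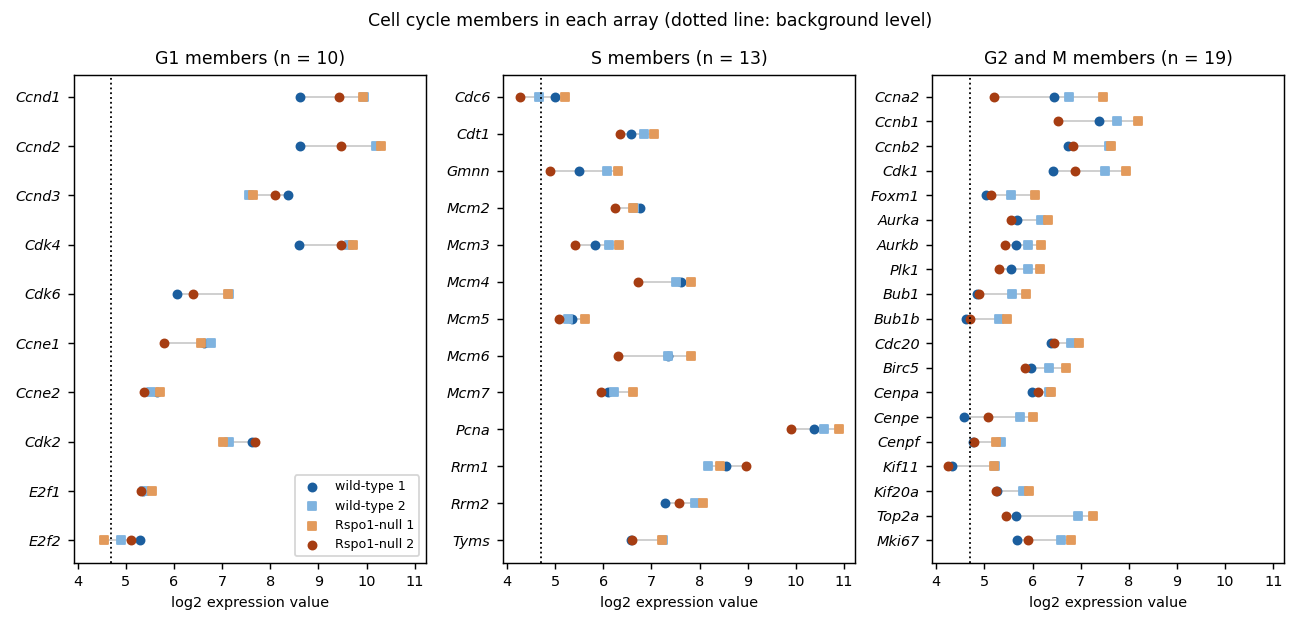
Log2 value of each of the 42 members (horizontal axis, 1 line for each gene, in panels for G1, S, and G2 and M) in the 4 arrays, 1 point for each array, with blue for wild-type and orange or brown for Rspo1-null, squares for the Xist pair, circles for the Y pair and a dotted line at the background level. For the G2 and M genes the points of wild-type 2 and Rspo1-null 1 lie to the right of both other points in 19 of 19 genes, while the genotypes overlap.

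No member differed between the genotypes beyond the spread of the cultures. In the limma fit over all 24012 genes, 0 of the 42 members passed an unadjusted p of 0.05, against 760 of all genes (3.17%), of which 288 were higher and 472 lower in Rspo1-null. Centring each array on its median turned this split to 435 higher and 316 lower, and cyclic loess to 346 and 337, with still no member among them. After Benjamini-Hochberg adjustment 0 of 24012 genes passed 0.05 (0%) in limma. The lowest unadjusted p among the members was 0.137, for Ccne1, with an adjusted p of 0.999. The 95% intervals of all 42 differences held 0, reaching from 0.42 to 2.00 to either side of the estimate (median 0.89). Only 19 intervals lay wholly within 1 log2 unit of 0. Those of the other 23 members reached past 1 on at least 1 side, so that a 2-fold change in at least 1 direction is not excluded for them. The median difference was 0.03 over the members, 0.02 over the G1, -0.08 over the S and 0.07 over the G2 and M genes, against 0.03 over the 12245 genes above background. Rspo1-null means were higher for 24 members and lower for 18. With the Xist or Y-linked transcripts as a block, described below, 1 member (Cdk1) passed, and with the replicate number as a block 0 did. A fit that leaves out 1 array sets a lone array against 2, so that the spread comes from the other genotype alone and the lone array is assumed to vary like it. Such fits passed 0 members without wild-type 1 (2.3% of all genes), 3 without wild-type 2 (7.12%), 5 without Rspo1-null 1 (2.86%) and 1 without Rspo1-null 2 (2.25%), and these counts describe single arrays.

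The members differed more between the Xist pair and the Y pair than between the genotypes. In 31 of the 42 members both arrays of the Xist pair lay above both arrays of the Y pair, an order found for 19.8% of all genes and 27.3% of genes above background. This order held for 5 of 10 G1, 7 of 13 S and 19 of 19 G2 and M genes. The opposite order was seen for 4 members, Ccnd3, Cdk2, E2f2 and Rrm1, against 22.2% of all genes and 20.8% of genes above background. The median difference, Xist pair minus Y pair, was 0.61 over the members, 0.29 over the G1, 0.50 over the S and 0.74 over the G2 and M genes, against 0.04 over genes above background. In absolute terms it was larger than the genotype difference for 40 of 42 members, against 55.3% of all genes and 59.3% of genes above background. The genotypes themselves did not overlap for 2 members, Ccne1 and Mcm2, both lower in Rspo1-null, against 31.2% of all genes and 28.7% of genes above background. Rspo1-null 1 was the highest array for 31 members, against 27.5% of genes above background, Rspo1-null 2 the lowest for 22, against 23.9%, and wild-type 1 the lowest for 16, against 35.7%. The median range over the 4 arrays was 0.88 for the members, from 0.23 for E2f1 to 2.26 for Ccna2, against 0.50 for genes above background.

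**Figure D2:**
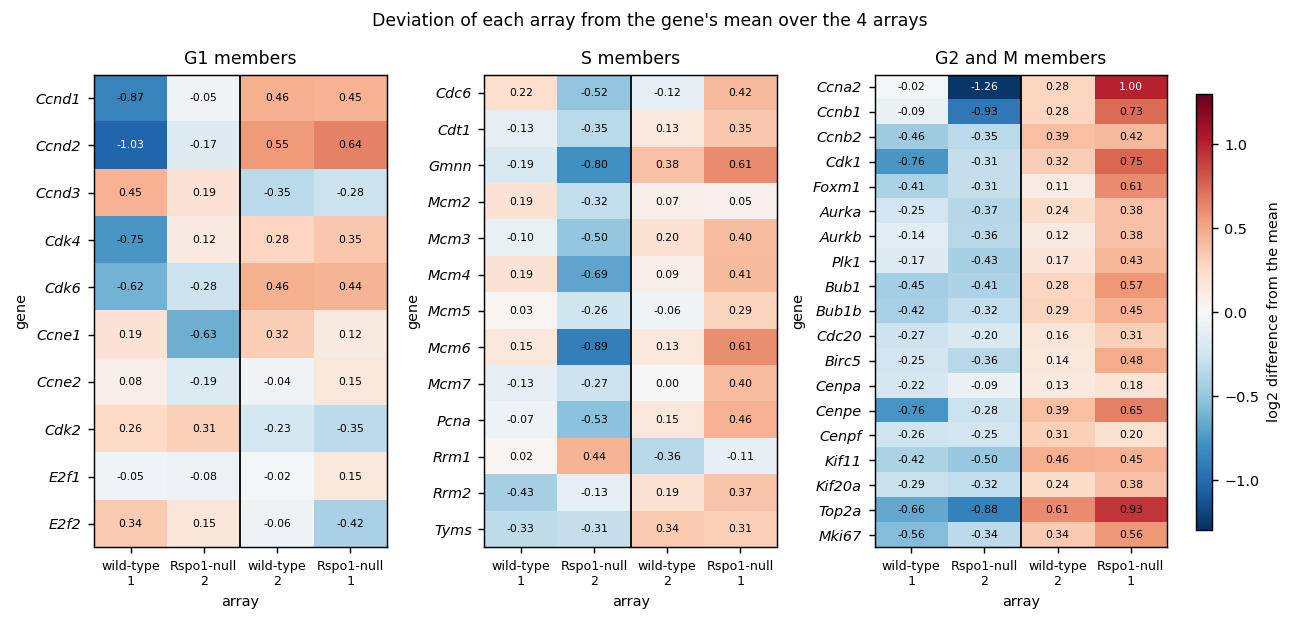
Deviation of each array from the mean of the 4 arrays (log2, color scale and printed values) for every member, in separate panels for G1, S, and G2 and M genes, with the Y pair left and the Xist pair right of the line. The G2 and M panel is below 0 at the left and above 0 at the right in every gene, whereas the lowest values of the S panel lie in Rspo1-null 2 for 10 of 13 genes.

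Among the G1 genes, the D cyclins and their kinases split into groups. Ccnd1, the cyclin through which growth factors act, had values of 8.61 in wild-type 1, 9.95 in wild-type 2, 9.94 in Rspo1-null 1 and 9.44 in Rspo1-null 2. Ccnd2, its close relative, had 8.62, 10.20, 10.29 and 9.48 in the same order of arrays. Wild-type 1 was thus the low array for both cyclins, 0.83 and 0.86 below the next one, Rspo1-null 2. Their kinase Cdk4 had values of 8.60, 9.64, 9.71 and 9.47, and Cdk6, which pairs with the same cyclins, had 6.06, 7.13, 7.12 and 6.39. For all 4 genes the arrays of the Xist pair differed from each other by at most 0.09. Wild-type 1 was lowest for all 4 genes, against 35.7% of genes above background. Their genotype differences lay between 0.16 and 0.47 (SE 0.38 to 0.60). Within the Xist pair the differences of these 4 genes were -0.02 to 0.09, and within the Y pair 0.34 to 0.87.

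Ccnd3, the D cyclin that rises when myoblasts differentiate and stays on in myotubes, ran the other way. Its values were 8.37 in wild-type 1, 7.56 in wild-type 2, 7.63 in Rspo1-null 1 and 8.10 in Rspo1-null 2. Both arrays of the Y pair were the high ones, and the genotypes overlapped, with a difference of -0.10 (SE 0.34). Cdk2, the partner of cyclin E, had 7.63, 7.14, 7.02 and 7.68, again higher in the Y pair. E2f2, an activating E2F factor, had 5.30, 4.90, 4.54 and 5.12, the same division at values near background. E2f1, the other activating E2F of the set, was almost flat, with 5.35, 5.38, 5.55 and 5.32.

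Ccne1, the cyclin that activates Cdk2 at the entry into S phase, had the lowest p of the members. Its values were 6.63 in wild-type 1, 6.76 in wild-type 2, 6.56 in Rspo1-null 1 and 5.80 in Rspo1-null 2. The wild-type mean was 6.70 ± 0.09 and the Rspo1-null mean 6.18 ± 0.53 (SD, n = 2), so that the gap rested mainly on Rspo1-null 2. The difference of -0.52 (SE 0.29, 95% interval -1.27 to 0.24) did not pass the test. It was -0.20 within the Xist pair and -0.83 within the Y pair. Ccne2, the second cyclin E gene, had 5.65, 5.52, 5.71 and 5.37, with a difference of -0.04 (SE 0.18).

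The members for licensing and for the replication fork were all lowest in Rspo1-null 2. This held for 10 of 10 such members, including 6 of 6 Mcm genes, where 23.9% of genes above background had their lowest value in that array. It did not hold for all such genes outside the set. Of 52 other G1 and S genes, listed below, Rspo1-null 2 was lowest for 31. Wild-type 1 was lowest for 15, against 35.7% of genes above background. Mcm6, a subunit of the helicase and the S gene with 2 pairs of overlapping E2F motifs in the promoter printed above, had values of 7.35 in wild-type 1, 7.34 in wild-type 2, 7.81 in Rspo1-null 1 and 6.32 in Rspo1-null 2. The wild-type arrays stood at nearly the same value, and the Rspo1-null arrays lay on opposite sides of them. Mcm4, another subunit, had 7.60, 7.50, 7.83 and 6.73, the same pattern. Cdc6, which with Cdt1 loads the helicase, had 5.00, 4.67, 5.21 and 4.27, of which 2 arrays were below background.

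The genotype difference of these licensing and fork genes therefore turned with the pair. For Mcm6 it was 0.48 within the Xist pair and -1.03 within the Y pair, which gave -0.28 (SE 0.51, 95% interval -1.62 to 1.06) over all 4 arrays. For Cdc6 the differences were 0.54 and -0.73, and for Mcm4 0.32 and -0.88. In 9 of the 13 S genes Rspo1-null was higher within the Xist pair and lower within the Y pair, against 21.4% of genes above background. Mcm2 was the exception among the Mcm genes, with 6.75, 6.64, 6.62 and 6.24, a difference of -0.26 (SE 0.19) and genotypes that did not overlap. The remaining subunits Mcm3, Mcm5 and Mcm7 had genotype differences of -0.10, 0.03 and 0.13.

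The other fork and licensing members repeated the high value of Rspo1-null 1. Pcna, the sliding clamp of the DNA polymerases, had values of 10.37 in wild-type 1, 10.59 in wild-type 2, 10.90 in Rspo1-null 1 and 9.91 in Rspo1-null 2. Gmnn, which codes for the Cdt1 inhibitor geminin, had 5.49, 6.07, 6.30 and 4.89. Cdt1 itself had 6.57, 6.84, 7.05 and 6.35, with a genotype difference of 0.00 (SE 0.28). All 3 were ordered with Rspo1-null 1 above wild-type 2, wild-type 1 and Rspo1-null 2.

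The 3 genes of nucleotide supply were the S members in which Rspo1-null 2 was not lowest. Rrm1, the large subunit of ribonucleotide reductase, had values of 8.56 in wild-type 1, 8.17 in wild-type 2, 8.42 in Rspo1-null 1 and 8.97 in Rspo1-null 2, which makes the array lowest for Mcm6 the highest for Rrm1. Its difference was 0.33 (SE 0.26, 95% interval -0.35 to 1.02), with 0.25 within the Xist pair and 0.42 within the Y pair. Rrm2, the small subunit that is made in S phase, had 7.28, 7.90, 8.08 and 7.58, with Rspo1-null above wild-type in both pairs but by less than the spread of the cultures allows to call (0.24, SE 0.30). Tyms, the thymidylate synthase, had 6.58, 7.25, 7.22 and 6.60, so that each genotype held a high and a low array and the difference was 0.00 (SE 0.33).

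**Figure D3:**
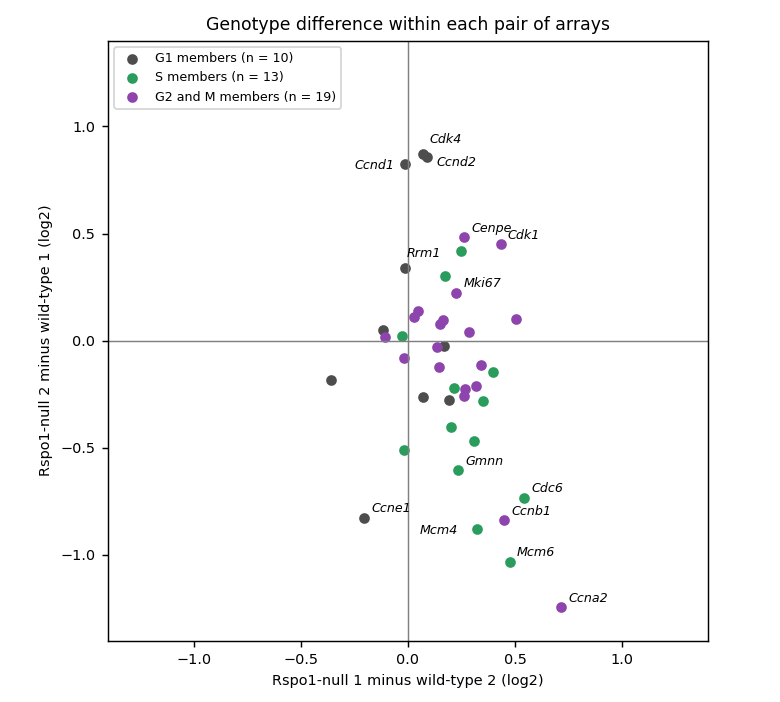
Genotype difference (Rspo1-null minus wild-type, log2) of each member within the Xist pair (horizontal axis, Rspo1-null 1 minus wild-type 2) and within the Y pair (vertical axis, Rspo1-null 2 minus wild-type 1), 1 point for each gene, with G1, S, and G2 and M genes in separate colors. The 20 of 42 members at the lower right were higher in Rspo1-null in the Xist pair and lower in the Y pair, against 21.4% of genes above background. Among them are Mcm6 at 0.48 and -1.03 and Ccna2 at 0.71 and -1.24. Ccnd1, Ccnd2 and Cdk4 lie near 0 on the horizontal axis and between 0.83 and 0.87 on the vertical axis.

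The cyclins of mitosis were higher in the Xist pair but spread to different degrees. Ccna2, cyclin A, had values of 6.45 in wild-type 1, 6.75 in wild-type 2, 7.46 in Rspo1-null 1 and 5.20 in Rspo1-null 2. Its Rspo1-null arrays were the highest and the lowest of the 4 and lay 2.26 apart, with both wild-type arrays between them. Ccnb1, cyclin B1, had 7.37, 7.74, 8.19 and 6.54, with the same array at each end. Ccnb2, cyclin B2, whose promoter above carries 3 CCAAT boxes, had 6.74, 7.59, 7.62 and 6.85, so that here the arrays of each pair stood close together. Their genotype differences were -0.27 (SE 0.76) for Ccna2, -0.20 (SE 0.57) for Ccnb1 and 0.07 (SE 0.40) for Ccnb2.

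Cdk1, the kinase that these cyclins activate, had values of 6.42 in wild-type 1, 7.50 in wild-type 2, 7.93 in Rspo1-null 1 and 6.87 in Rspo1-null 2. Rspo1-null was higher by 0.43 within the Xist pair and by 0.45 within the Y pair, while the genotypes as a whole overlapped. Over all 4 arrays the difference was 0.44 (SE 0.52, unadjusted p = 0.434 and adjusted p = 0.999 from limma). With the pair as a block the unadjusted p from limma was 0.036, and Cdk1 was the only member past 0.05 in a fit where 5.35% of all genes were past it and 0% after adjustment. Foxm1, the factor that turns on many G2 and M genes, had 5.04, 5.55, 6.06 and 5.14, with differences of 0.50 and 0.10 within the pairs.

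Top2a and Mki67 are common markers of dividing cells. Top2a, the topoisomerase that untangles sister DNA before division, had values of 5.66 in wild-type 1, 6.93 in wild-type 2, 7.25 in Rspo1-null 1 and 5.45 in Rspo1-null 2. The Xist pair exceeded the Y pair by 1.54, the largest such difference among the 42 members, while the genotypes differed by 0.05 (SE 0.74, 95% interval -1.89 to 1.99). Mki67, which coats mitotic chromosomes, had 5.68, 6.58, 6.80 and 5.91. Rspo1-null was higher by 0.22 in both pairs, and the genotype difference of 0.22 (SE 0.44) did not pass the test.

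The kinases of mitosis and of the spindle checkpoint were all higher in the Xist pair. Aurka and Aurkb act at the spindle poles and at the centromere, Plk1 at many steps of mitosis, and Bub1 and Bub1b hold back anaphase until chromosomes are attached. Rspo1-null 1 was the highest array for 5 of 5 of these genes, against 27.5% of genes above background, and the Xist pair was higher by 0.50 to 0.85. The lowest array was Rspo1-null 2 for 3 of them and wild-type 1 for 2. Within the Y pair their genotype differences ran from -0.26 to 0.10. Bub1 had values of 4.84 in wild-type 1, 5.57 in wild-type 2, 5.85 in Rspo1-null 1 and 4.88 in Rspo1-null 2, and Plk1 had 5.56, 5.90, 6.16 and 5.30. The genotype differences of all 5 lay between 0.00 and 0.16, with SE from 0.29 to 0.42.

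Genes of the centromere and the spindle showed the same division, with the Xist pair higher by 0.31 to 1.04. Cenpe, a kinesin that moves chromosomes to the spindle equator, had values of 4.59 in wild-type 1, 5.74 in wild-type 2, 6.0 in Rspo1-null 1 and 5.07 in Rspo1-null 2. It had the largest genotype difference of its 7 genes, 0.37 (SE 0.51), with 0.26 and 0.48 within the pairs. Cenpa, the histone variant of the centromere, had the smallest step between the pairs, 0.31, with 5.98, 6.34, 6.39 and 6.12. Kif11, the motor that separates spindle poles, had 4.33, 5.21, 5.20 and 4.25, so that the Y pair was below background and the Xist pair above it. Birc5, the survivin gene, and Cdc20, an activator of the anaphase-promoting complex, had pair differences of 0.61 and 0.47. Cenpf, a kinetochore protein, and Kif20a, a motor of cytokinesis, had 0.51 and 0.62. Cenpf and Kif11 were the 2 G2 and M genes whose highest array was not Rspo1-null 1.

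Other genes of the cell cycle were read from a list of 54 G1 and S genes, of which 52 had a named row, and 50 G2 and M genes, of which all had. Of all these genes, 2 passed an unadjusted p of 0.05, both in the G1 and S list, with 1 in each direction, against 1.2% of all genes higher and 1.97% lower in Rspo1-null. Tk1, the thymidine kinase of nucleotide salvage, had values of 6.04 in wild-type 1, 6.48 in wild-type 2, 7.17 in Rspo1-null 1 and 6.83 in Rspo1-null 2, a difference of 0.74 (SE 0.23, unadjusted p = 0.0258 and adjusted p = 0.999 from limma). Gins3, a subunit of the replicative helicase, had 5.81, 5.79, 5.39 and 5.19, a difference of -0.51 (SE 0.15, unadjusted p = 0.0238 and adjusted p = 0.999 from limma). For both genes the genotypes did not overlap, and both calls were lost with the replicate block (unadjusted p from limma 0.0646 for Tk1 and 0.0553 for Gins3) and held with the block on Xist or Y-linked transcripts (0.00654 and 0.0283).

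The Xist pair was the higher one for most of these other genes too. Both arrays of the Xist pair lay above both of the Y pair for 30 of the 52 G1 and S genes and 35 of the 50 G2 and M genes. They lay below for 1 and 2 genes. The higher order was found for 19.8% of all genes and 27.3% of genes above background, and the lower one for 22.2% and 20.8%. Ndc80, Nuf2 and Spc25, subunits of the complex that ties kinetochores to microtubules, had the widest ranges among the G2 and M genes above background. Ndc80 had values of 4.27 in wild-type 1, which was below background, 5.34 in wild-type 2, 6.20 in Rspo1-null 1 and 4.84 in Rspo1-null 2. Spc25 had 4.12, 5.34, 5.85 and 4.11, and Nuf2 had 4.48, 5.34, 5.85 and 4.35, so that the Y pair of both stayed below background. Among the G1 and S genes, Dbf4, the activator of the kinase that fires origins, had 4.93, 6.73, 6.74 and 6.15. Prim1, the catalytic primase subunit, had 4.48, 5.28, 5.85 and 4.16, of which the 2 arrays of the Y pair were below background. E2f8, a repressive E2F factor, was highest in wild-type 1, with 7.53 against 6.47, 6.04 and 6.28, an order unlike that of Dbf4 and Prim1. Both its Rspo1-null arrays lay below both wild-type arrays, as for 19.1% of all genes. The difference was -0.84 (SE 0.38, unadjusted p = 0.0827 and adjusted p = 0.999 from limma). With the block on Xist or Y-linked transcripts the unadjusted p from limma was 0.0256, where 5.35% of all genes passed 0.05 and 0% after adjustment.

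**Figure D4:**
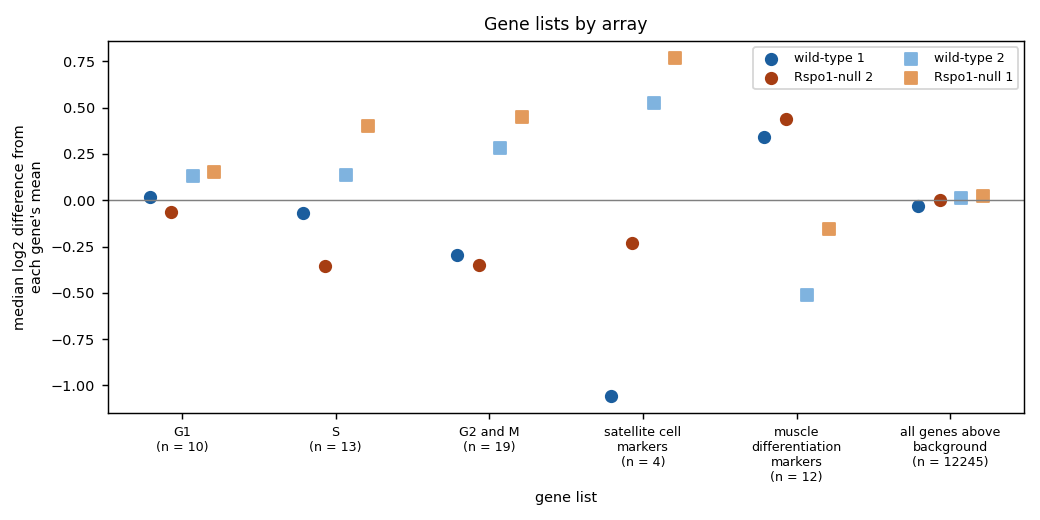
Median deviation of each array from the mean of the gene over the 4 arrays (vertical axis, log2) for the G1, S, and G2 and M members, 2 marker lists and all genes above background, 1 point for each list and array, with circles for the Y pair and squares for the Xist pair. The G2 and M genes and the satellite cell markers are high in wild-type 2 and Rspo1-null 1, where the muscle differentiation markers are low.

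Markers of muscle cell state divided the arrays in the same way as the mitotic genes. All 12 muscle differentiation genes were lower in both arrays of the Xist pair than in both arrays of the Y pair, against 20.8% of genes above background. Their mean log2 value was 9.66 in wild-type 2 and 10.1 in Rspo1-null 1, against 10.8 in wild-type 1 and 10.9 in Rspo1-null 2. Myog, the transcription factor myogenin, had values of 11.07 in wild-type 1, 9.56 in wild-type 2, 9.96 in Rspo1-null 1 and 11.70 in Rspo1-null 2, and Ckm, muscle creatine kinase, had 8.92, 5.55, 6.06 and 8.16. Of 4 satellite cell markers, Pax7, Myf5 and Vcam1 were higher in both arrays of the Xist pair, against 27.3% of genes above background. Pax7, for example, had 6.38, 7.85, 8.17 and 7.10. Itga7 was not, with 8.69, 8.71, 8.39 and 8.66. The part of these differences in muscle cell state, and of the sex of the donors, in the values of the cell cycle genes was not tested.

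Most markers of other cell types were below background. None of 5 fibroblast, 5 endothelial or 3 fat cell markers, nor the only named Schwann cell marker, Sox10, was above background, and mean log2 values of the fibroblast list lay between 3.29 and 3.41 in the 4 arrays. Of 5 named immune markers only Cd68 was above background, with 6.08, 5.79, 5.81 and 5.69, and the pan-leukocyte gene Ptprc was between 2.59 and 2.89. Of 4 mural cell markers Rgs5 had 5.80, 5.14, 6.65 and 4.64, with its highest value in Rspo1-null 1 and its lowest in Rspo1-null 2 like Ccna2, and Cspg4 had 5.60, 5.61, 4.71 and 5.60. Myh11 and Kcnj8, the other mural markers, stayed below background, and the part of mural cells in these values was not tested.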

How the data were processed

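Total RNA of the 4 cultures was labelled with biotin and hybridized, 1 culture to an array. The authors deposited log2 values, 1 for each gene and array, made with RMA and Partek per the submitters' processing notes, which state no version. RMA corrects background, sets all arrays to the same distribution and summarizes probes, and array medians lay between 4.62 and 4.70. Sequencing depth has no counterpart here, and the number of arrays limits the precision.

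Rows carry Entrez gene numbers. Of 24973 rows, 24015 took their symbol from the platform annotation, 1 (Ccnb1) by its gene number in RefSeq, and 957 were not named and not used. Repeated rows of 4 symbols were reduced to the brightest, which left 24012 genes. Genotypes and replicate numbers came from the labels. Rspo1-null was compared with wild-type by limma 3.58.1 (R 4.3.3) with genotype as the only term, and p-values were adjusted by Benjamini-Hochberg over all 24012 genes. The fit was also run on simulated data with independent noise in each array. Such data lack the division into pairs seen here, so that run does not test the fit under it. The study's methods name a one-way ANOVA, which was run as an alternative. Other alternatives were a replicate block, a block on Xist or Y-linked transcripts, each array left out, an intensity trend, median centring, cyclic loess, and dim genes left out. A gene was called dim when its means in both genotypes were below 4.70. All members are named, and of the other cell cycle genes those past an unadjusted p of 0.05 and the 3 with the widest range above background in each phase. The members, the lists, the motifs and the pairs were chosen with earlier results of these data known.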

Additional observations from a re-analysis of the deposited data

How the results depend on the processing

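After adjustment 0 genes passed 0.05 in limma under every alternative run. The count of all genes at an unadjusted p of 0.05, 760, became 399 with the replicate block, 1284 with the block on Xist or Y-linked transcripts, 280 with dim genes left out, 540 to 1709 when 1 array was left out (1709 without wild-type 2), 832 with an intensity trend and 1139 in the ANOVA. Samples with the same replicate number deviated in opposite ways (correlation -0.358), and the crossed pairing is the block on Xist or Y-linked transcripts. The count of members, 0, became 1 (Cdk1) in that block, stayed 0 with the replicate block, and was 0 to 5 when 1 array was left out. In these fits a lone array stands against 2 and is assumed to vary like them, so the calls describe single arrays: Ccne1, Mcm4, Mcm6, Ccna2 and Ccnb1 were lower without Rspo1-null 1 (5), Ccnd1, Ccnd2 and Cdk4 higher without wild-type 2 (3), and Ccna2 higher by 0.86 without Rspo1-null 2 (1). The count of other cell cycle genes, 2, became 0 with the replicate block and 7 with the other block. These 7 were 5 of the 52 G1 and S genes and 2 of the 50 G2 and M genes, in a fit where 5.35% of all genes passed. The median of the G1 genes moved from 0.02 to 0.072 with median centring, 0.0395 with cyclic loess and -0.0604 to 0.16 when 1 array was left out. The median of the S genes ran from -0.45 without Rspo1-null 1 to 0.35 without Rspo1-null 2, and that of the G2 and M genes from -0.31 to 0.51. Leaving out 1 array changed the sign of the difference for 8 to 23 members, and only Ccne1, Mcm2 and Rrm1 kept it in all 4 such fits. The number of members with the Xist pair above the Y pair was 32 with median centring and 31 with cyclic loess. The causes were not tested.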
